A study of Homo sapiens with 4 samples.

Results

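A group of 10 cytokine genes, chosen by name as interleukins and colony-stimulating factors of tumour cells, was followed in the deposited counts of A549 cells, a human lung adenocarcinoma line. The group held the interleukin genes IL1A, IL1B, IL18, IL6, IL11, IL32 and IL23A, the gp130 ligand gene LIF, and the colony-stimulating factor genes CSF1 and CSF3. All 10 were present among the 50868 genes of each count file. Messenger RNA was sequenced in 4 libraries, 2 labelled control (EV in the study) and 2 labelled USP12-overexpressed, from cells made to overexpress the deubiquitinase USP12. The study built its USP12 constructs, with a V5 or Flag tag, in pLVX vectors, and which of them these cells carried is not given in the sources used here. The libraries held between 14280081 and 16305356 counts. The sources used here do not give whether the cells were a pool or 1 clone, or whether the replicates were separate cultures, so p-values measure only the spread between these libraries, which may be technical. USP12 itself had 201 and 621 counts in the controls against 24235 and 32274, so the target gene goes with the labels.

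Interleukins and colony-stimulating factors are secreted signals by which a tumour cell can act on the leukocytes and stroma around it. IL-1α and IL-1β act through one receptor and switch on NF-κB in the receiving cell, and IL-18 uses a related receptor. IL-6, IL-11 and LIF each bind a receptor that recruits gp130 (encoded by IL6ST) and activates STAT3 through JAK kinases. CSF-1 supports macrophages, and G-CSF, the product of CSF3, supports neutrophils. Several of these genes are known targets of NF-κB, and IL11 is known to be induced by TGF-β through AP-1 and SMAD proteins.

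The letters before the transcription start of 3 of these genes are shown, and these 3 were chosen after their values were seen. IL11 was the ligand gene that was higher in USP12 cells, and IL6 and IL1B are inflammatory genes that were at or near the detection limit there. The windows cover the 250 bases before each start in RefSeq (GRCh38.p14), written 5′ to 3′ on the strand of the gene, with capitals for the motif matches named next. The last 53 bases of IL6 and the last 37 of IL1B are left out, since exons of other GENCODE transcripts of these genes cover them.
IL11, chr19:55370464-55370713 (minus strand): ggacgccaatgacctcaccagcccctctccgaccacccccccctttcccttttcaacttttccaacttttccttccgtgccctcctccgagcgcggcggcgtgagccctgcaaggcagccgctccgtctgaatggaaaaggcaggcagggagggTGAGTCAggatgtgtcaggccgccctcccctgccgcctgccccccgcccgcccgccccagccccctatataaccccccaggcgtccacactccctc
IL6, chr7:22726950-22727146 (plus strand): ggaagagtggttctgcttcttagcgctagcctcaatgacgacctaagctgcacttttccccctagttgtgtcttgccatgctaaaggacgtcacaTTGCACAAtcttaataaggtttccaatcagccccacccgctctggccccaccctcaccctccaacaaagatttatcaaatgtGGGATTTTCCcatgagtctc
IL1B, chr2:112836817-112837029 (minus strand): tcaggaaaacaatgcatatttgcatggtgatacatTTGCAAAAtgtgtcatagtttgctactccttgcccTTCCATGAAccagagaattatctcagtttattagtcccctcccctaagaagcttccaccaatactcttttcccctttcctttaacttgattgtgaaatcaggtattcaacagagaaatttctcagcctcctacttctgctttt
IL11 held 1 match, to the AP-1 motif, spelled TGANTCA. It ran from 96 to 90 bases before the start. IL6 held a match to the 10-letter NF-κB motif (from 73 to 64 bases before the start) and 1 to the C/EBP motif TTGCNNAA. IL1B held 1 match to the C/EBP motif and 1 to the STAT motif TTCNNNGAA. The RefSeq table held 6 of the 10 genes, with 8 windows in all, and LIF, IL18, CSF1 and CSF3 were not matched. Over those 8 windows, the NF-κB motif was found in 3 and the AP-1 motif in 4, while 5.21% and 6.57% of all 35116 promoter windows of this length held them. The windows of the 2 IL1A starts overlap and share 1 AP-1 match, so the 4 windows stand for 3 genes (IL1A, IL11 and IL23A). IL23A also held an NF-κB match. The CRE motif TGACGTCA was found in 1 window, that of IL32, against 1.65% of all windows. The C/EBP motif was in 2 (9.05% of all), the STAT motif in 1 (6.57% of all) and the TATA box motif TATAAA in 2 (10.7% of all). Both strands were searched. In IL32, a pair of NF-κB matches on opposite strands overlapped each other. A match describes letters and does not show that a factor binds.

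**Figure D1:**
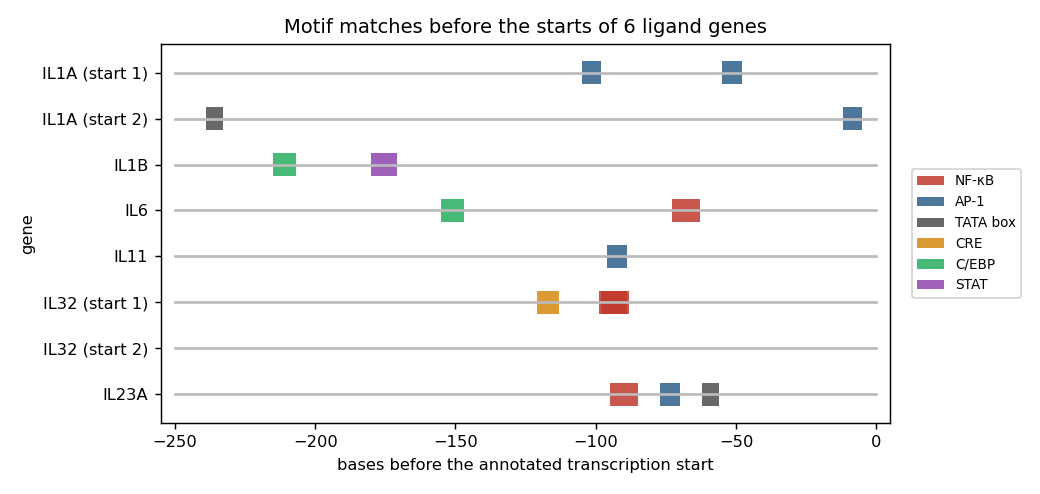
Motif matches in the 250 bases before the annotated starts of 6 ligand genes, with distance before the start on the horizontal axis and 1 line for each RefSeq start. AP-1 matches lie before IL1A, IL11 and IL23A, and NF-κB matches lie before IL6, the first start of IL32 and IL23A.

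The libraries themselves differed within the control group, and this bears on nearly all values below. Across the 15222 genes that passed the filter on low counts, the SD of the log2 ratio was 1.32 for the pair of controls and 0.618 for the USP12 pair. The column heading of control replicate 1 starts with another date-like number than the other 3 headings, so what that number stands for and that library cannot be told apart. The epithelial genes EPCAM, KRT8, KRT18, KRT19 and CDH1 were detected in all libraries, with a summed level of 9638 and 5060 CPM (counts after scaling for library size) in the controls against 4275 and 3976 CPM, and CDKN2A, which is deleted in A549, had 0 counts in each. Of 8 haematopoietic markers, the pan-leukocyte gene PTPRC had at most 1 count and CD3E and FCGR3A had 0, while CD14 and CD68 were detected. The summed level of those 8 genes was 124 and 56.4 CPM in the controls, against 79.5 and 62.8 CPM. For the 5 fibroblast markers it was 32.7 and 3.88 CPM against 21.5 and 15.9 CPM, with DCN at 0. For the 4 endothelial markers it was 15.4 and 8.59 CPM against 0.504 and 1.32 CPM, with VWF and KDR at no more than 3 counts. The other endothelial markers were CDH5, with 136 and 96 counts in the controls, then 2 and 5, and PECAM1, with 68 and 56, then 4 and 14. Both met as lower the criterion given below, with log2 fold changes of -4.94 and -2.69. So did the epithelial gene KRT19, with 5770 and 2055 counts in the controls, then 955 and 807 (log2 fold change -2.14). The haematopoietic gene LYZ met it too, with 11 and 27 counts, then 1 and 3 (log2 fold change -2.98). No other marker met it in either direction. The part of these markers in the cytokine values was not tested. In bulk RNA, fewer cells that express a gene and less of its RNA per cell cannot be told apart.

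**Figure D2:**
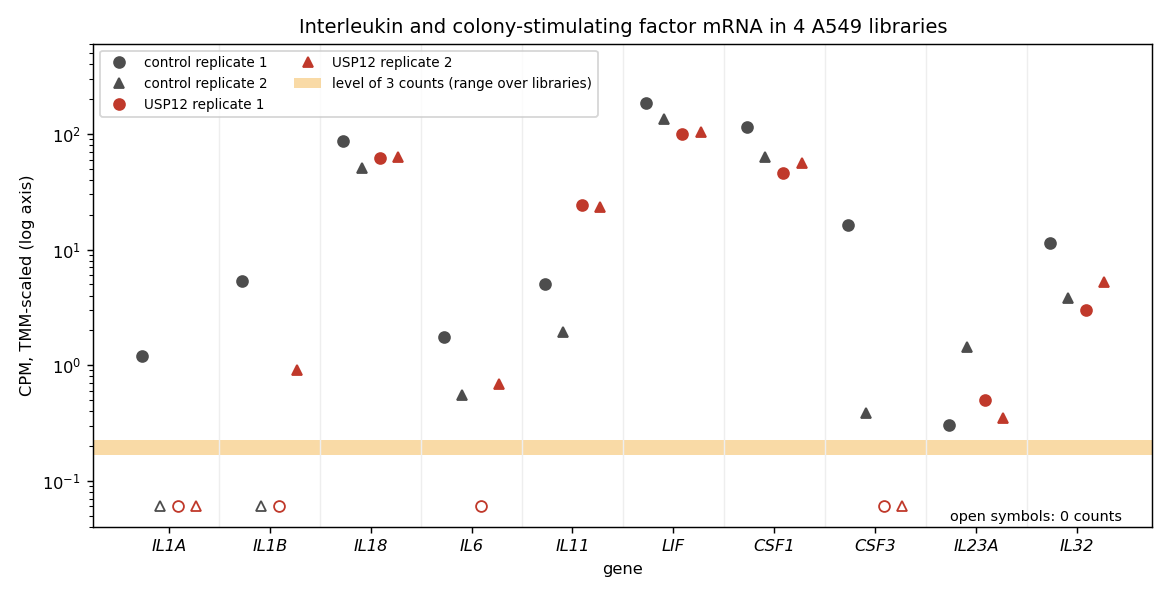
CPM of the 10 genes (log axis) in each library, with control in grey, USP12 in red, replicate 1 as circles and replicate 2 as triangles. Open symbols mark 0 counts and the band is the level of 3 counts. Control replicate 1 is the highest of the 4 libraries in 8 genes, and IL11 is the gene in which both USP12 libraries lie above both controls.

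As CPM, 1 of the 10 genes was higher in both USP12 libraries than in both control libraries (IL11). On that scale 3 were lower in both (LIF, CSF1 and CSF3), and 6 overlapped between the groups. The overlap of IL18, 1 of the 6, depends on the scale, as given below. Among all genes tested, 19.5% were above and 17% were below in both libraries. Of the 10, 7 passed the filter and were tested. The criterion was an unadjusted p of 0.05 or less with a log2 fold change of at least 1 in size. Its limits follow those that the study gives for lower genes, where it is not stated whether p was adjusted, and they were applied here in both directions. By it, 1 of the 7 was higher (IL11) and 0 were lower. Of all tested genes, 2.92% met it as higher and 4.41% as lower. No member had an adjusted p under 0.05 from the edgeR quasi-likelihood test, nor did any other gene (0%), while 1155 genes had an unadjusted p under 0.05.

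IL11 encodes interleukin-11, a gp130 cytokine known for its part in fibrosis and in epithelial tumours. It lies on chromosome 19 (GRCh38, 55364382 to 55370463, minus strand), with no annotated gene over it. Its counts were 66 and 35 in the controls against 335 and 338. As CPM, these were 4.99 and 1.94 against 24.1 and 23.4. The USP12 libraries lay close together and far above both control libraries, which differed from each other by 1.31 on the log2 scale. IL11 had a log2 fold change of 2.78 with an SE of 0.61 (adjusted p = 0.280, edgeR quasi-likelihood test), a 6.88-fold difference. Its p ranked 195th of the 15222. By the Wald test of DESeq2 the adjusted p was 0.00121, by the exact test of edgeR it was 0.00488, and over all alternatives it ran from 0.00121 to 0.882, the highest being without USP12 replicate 1. With control replicate 1 left out the log2 fold change was 3.61, and with control replicate 2 left out it was 2.28. In an exact permutation test of 1 gene, 2 libraries against 2 cannot give a two-sided p below 0.333.

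LIF and IL6, the other gp130 ligands of the group, were not higher. LIF, leukaemia inhibitory factor (chromosome 22, 30240453 to 30246759, minus strand), had 2425 and 2409 counts in the controls against 1376 and 1512. Its levels were 183 and 133 CPM against 99.0 and 105 CPM. Both USP12 libraries were below both controls, and as CPM the gap from the lower control was smaller than that between the controls. As TPM, which is defined below, the controls were 96.5 and 95.1 and the USP12 libraries 47.3 and 55.6. The gap between the controls thus depends on the scale. LIF had a log2 fold change of -0.64 with an SE of 0.36 (adjusted p = 0.834, edgeR quasi-likelihood test), and the adjusted p was 0.0212 without control replicate 2. The antisense genes LIF-AS1 and LIF-AS2 lie over LIF, and annotated genes on the other strand also overlap IL18 and IL32. The study used a stranded library kit for A549, but whether the counting used strand is not given in the sources used here.

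IL6 (chromosome 7, 22725884 to 22732002, plus strand) was barely detected in these cells. It had 23 and 10 counts in the controls and 0 and 10 in the USP12 libraries, or 1.74 and 0.554 CPM against 0 and 0.693 CPM. The exact Poisson interval of the first control value was 1.10 to 2.61 CPM, which covers counting error only, and the USP12 values overlapped the controls. The log2 fold change of -1.68 with an SE of 1.44 (adjusted p = 0.920, edgeR quasi-likelihood test) was not distinguishable from 0 at this depth, with a 95% interval from -5.19 to 1.83. It was -0.65 without control replicate 1, and -7.09 without USP12 replicate 2, where the USP12 library that remained was at 0 counts. IL6-AS1 and STEAP1B are annotated on the other strand of the locus.

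**Figure D3:**
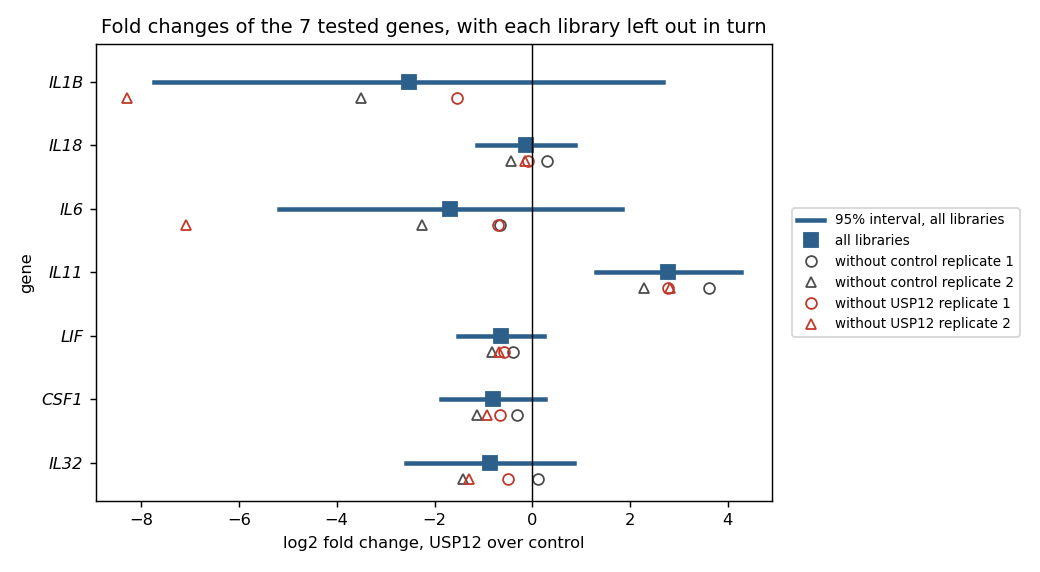
Log2 fold changes (USP12 over control) of the 7 tested genes, with the 95% interval of the quasi-likelihood fit as a bar and the values with 1 library left out as open symbols beneath. The interval of IL11 is the 1 that does not include 0, and the symbols of IL18 and IL32 lie on both sides of 0. IL1B was not tested without control replicate 1, and the far left symbols of IL1B and IL6 compare the controls with 1 library at 0 counts.

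The IL-1 family genes showed a split between an abundant member and a pair of barely detected ones. IL18 (chromosome 11, 112143253 to 112164096, minus strand), whose product is stored as a precursor in epithelial cells, had 86.2 and 50.8 CPM in the controls against 61.5 and 63.3 CPM. As CPM, the USP12 values lay between the controls. As TPM, the controls were 67.34 and 53.72 and the USP12 libraries 43.64 and 49.96. On that scale both USP12 libraries were below both controls. The overlap of IL18 thus depends on the scale. Its log2 fold change of -0.13 had an SE of 0.41 and a 95% interval from -1.14 to 0.87 (adjusted p = 0.979, edgeR quasi-likelihood test), and it was 0.30 without control replicate 1.

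IL1A and IL1B are neighbours on the minus strand of chromosome 2, at 112773925 to 112784493 and at 112829751 to 112836816, with 45.3 kb between them. IL1B had 71 counts in control replicate 1 and 0 in control replicate 2, then 0 and 13 in the USP12 libraries. IL1A had 16 counts in control replicate 1 and 0 in the other 3 libraries. Both genes thus took their control level from 1 library, and the other control library was at 0 for both. The 16 counts of IL1A stood for 1.21 CPM, with an exact Poisson interval of 0.692 to 1.97, and the exact upper limits of the 3 libraries at 0 were between 0.204 and 0.266 CPM. IL1B had a log2 fold change of -2.53 with an SE of 2.14 (adjusted p = 0.918, edgeR quasi-likelihood test), and against control replicate 2 alone the mean log2 CPM difference was 1.47. IL1A did not pass the filter. Set against 3 counts in each USP12 library, its mean control level was at least 2.86-fold higher, a bound that rests on control replicate 1.

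CSF1 (chromosome 1, 109910242 to 109930992, plus strand) had 1510 and 1136 counts in the controls against 639 and 803. As CPM these were 114 and 63.0 against 46.0 and 55.6. Both USP12 libraries were below both controls, though the second values of each group, 63.0 and 55.6 CPM, were close. As TPM those second values were 33.1 and 21.8. CSF1 had a log2 fold change of -0.80 with an SE of 0.43 (adjusted p = 0.815, edgeR quasi-likelihood test). It was -0.31 without control replicate 1. Without control replicate 2 it was -1.14, where the adjusted p was 0.0113.

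CSF3 (chromosome 17, 40015361 to 40017813, plus strand) had 217 and 7 counts in the controls and 0 in both libraries of USP12 cells. The control levels were 16.4 and 0.388 CPM, a gap of 4.99 on the log2 scale between replicates of 1 group. CSF3 did not pass the filter, which asks for a count of about 10 in at least 2 libraries. Without that filter it was the 1 lower member with an adjusted p under 0.05. Against 3 counts in each USP12 library, its mean control level was at least 39.7-fold higher. From control replicate 2 alone the bound was at least 1.83-fold. CSF2, which encodes GM-CSF and was named after its values were seen, had 1 count in 1 USP12 library and 0 in the other 3.

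IL32 and IL23A complete the group. IL32 (chromosome 16, 3065297 to 3082192, plus strand), an inflammatory cytokine gene with no mouse counterpart, had 150 and 69 counts in the controls against 42 and 76. Control replicate 2, at 3.82 CPM, lay between the USP12 values of 3.02 and 5.26 CPM. Its log2 fold change was -0.87 with an SE of 0.71 (adjusted p = 0.912, edgeR quasi-likelihood test) and 0.12 without control replicate 1. RNU1-125P overlaps IL32 on its strand, so its counts are uncertain to that extent. IL23A (chromosome 12, 56334174 to 56340410, plus strand), which encodes the p19 chain of IL-23, had 4 and 26 counts in the controls against 7 and 5. It was the member with its highest count in control replicate 2, and it did not pass the filter.

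Most members shared a difference between the controls. Control replicate 1 was above control replicate 2 in 9 of the 10 genes, against 49.5% of all tested genes, and it was the highest of the 4 libraries in 8, against 36.5%. Over the 10 genes the median log2 difference between the USP12 mean and control replicate 1 was -1.32, and that from control replicate 2 was -0.16. Over all tested genes these medians were 0.04 and 0.01. In control replicate 1, 0 of the 10 genes had 3 counts or fewer, in control replicate 2 there were 2, and in the USP12 libraries 4 and 2. For the 7 tested members these numbers were 0 and 1 in the controls, then 2 and 0. Of the 15222 tested genes, 479 and 217 were that low in the controls, then 255 and 146.

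Levels were compared between genes as TPM, the count per exon length scaled to the same total in every library. LIF was the most abundant of the 10 in every library, with 95.8 ± 0.989 TPM in the controls and 51.4 ± 5.91 TPM in the USP12 cells (SD, n = 2). IL18 came next, with 60.5 ± 9.63 and 46.8 ± 4.47 TPM. In the USP12 cells LIF and IL18 did not differ beyond their spread, and with the longest transcript as gene length the order turned there, with 62.5 TPM for IL18 and 44.8 TPM for LIF, while the control means were then 77.1 and 79.5 TPM. CSF1 followed, with 38.8 ± 7.96 TPM, and had 19.0 ± 3.97 TPM in the USP12 cells. IL11 had 2.90 ± 1.27 TPM in the controls and 17.3 ± 0.947 TPM in the USP12 cells, where it was next to CSF1 and did not differ from it beyond the spread. Among all tested genes, the level of IL11 stood at the 26.8th percentile in the controls and the 73.7th in the USP12 cells. The means of the remaining 6 genes were 7.77 TPM or less in either group, although IL32 and CSF3 had control means of 10.1 and 8.51 TPM with the longest transcript as gene length. CSF3 had 15.1 and 0.482 TPM in the controls and IL23A had 0.523 and 3.37 TPM, so the order of these low genes differed between the control libraries.

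**Figure D4:**
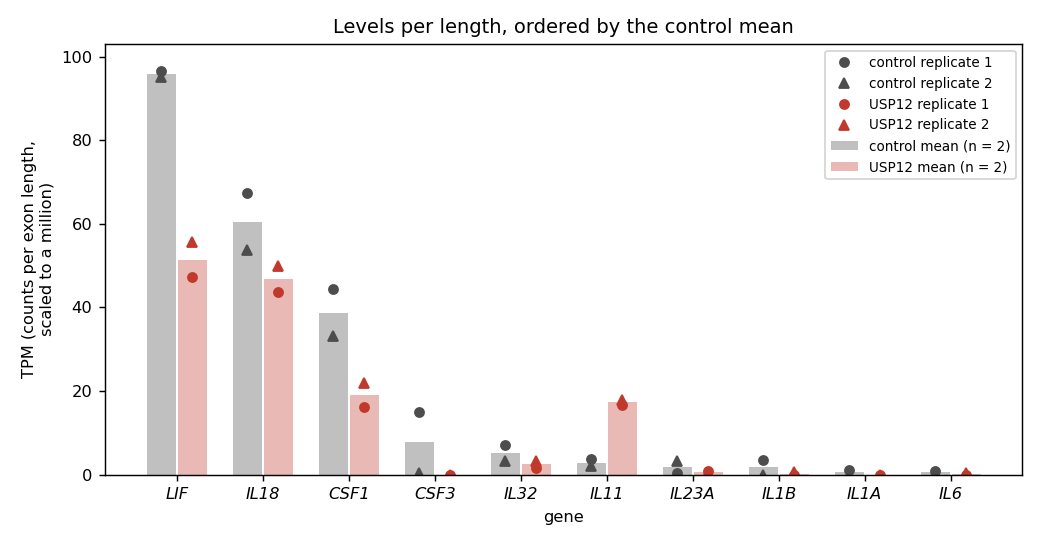
TPM of the 10 genes, ordered by the control mean, with bars for the group means (n = 2) and symbols for the libraries. LIF, IL18 and CSF1 hold the highest means in both groups, and IL11 goes from 2.90 TPM in the controls to 17.3 TPM in the USP12 cells. In USP12 replicate 1, IL11 (16.6 TPM) lies just above CSF1 (16.2 TPM).

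A tumour cell answers these signals only where it carries their receptors. Of 19 receptor, decoy and antagonist genes, 12 were tested, and 0 met the criterion in either direction, beside 4.41% lower and 2.92% higher of all tested genes. Their median log2 fold change was -0.56, against -0.06 for all tested genes. With DESeq2 size factors or by DESeq2, 1 was lower. Without a filter, with at least 10 counts in every library or by the exact test, 1 was higher. The gp130 gene IL6ST had 857 and 3190 counts in the controls against 830 and 1165, and the oncostatin M receptor gene OSMR had 1691 and 2680 against 2011 and 2518. IL11RA, the specific receptor of IL-11, was present at 112 and 93 counts in the controls and 73 and 95 in the USP12 cells. Ligand and receptor transcripts were thus present in the same cultures. IL11RA had a log2 fold change of -0.20 with an SE of 0.54. LIFR had 49 and 98 counts against 49 and 54, and IL6R had 53 and 249 against 37 and 115. In all of these receptors the USP12 values overlapped the controls.

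For the IL-1 family, the signalling receptor gene IL1R1 had 164 and 553 counts in the controls and 206 and 611 in the USP12 cells, and IL1RAP, its accessory chain, had 48 and 128 against 54 and 43. The decoy receptor IL1R2 had 25 and 29 counts in the controls, then 8 and 13, for a log2 fold change of -1.23 with an SE of 0.75. The antagonist gene IL1RN was at 0 in 3 libraries and had 5 counts in control replicate 2. SIGIRR, an inhibitory receptor, ranged from 174 to 822 counts, both extremes being controls. For IL-18, IL18R1 had between 10 and 26 counts and IL18RAP 0 in all 4 libraries, whereas IL18BP, the soluble inhibitor of IL-18, had 36 and 34 counts in the controls and 58 and 132 in the USP12 cells. IL18BP had a log2 fold change of 1.53 with an SE of 0.65 (adjusted p = 0.677, edgeR quasi-likelihood test). Most receptors of the colony-stimulating factors, which are leukocyte genes, were at or near 0. CSF1R had at most 5 counts, CSF3R at most 1 and CSF2RB 0, as had the IL-23 receptor gene IL23R, while IL12RB1 had at most 1. CSF2RA was the exception, with 237 and 256 counts in the controls and 92 and 118 in the USP12 cells (log2 fold change -1.12, SE 0.46, adjusted p = 0.663, edgeR quasi-likelihood test).

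Most other interleukins were not transcribed at a level these libraries could show. Of 41 further interleukin and colony-stimulating ligand genes, 23 had 0 counts in all 4 libraries, 7 had between 1 and 3 at most, 4 had more but did not pass the filter, and 7 were tested. Those 7 had a median log2 fold change of 0.23 and 0 met the criterion, beside 4.41% lower and 2.92% higher of all tested genes. By DESeq2, by the exact test and with the replicate block, 1 gene was lower and 0 were higher. The same held without a filter and with at least 10 counts in every library. EBI3, a shared chain of IL-27 and IL-35, had 331 and 68 counts in the controls and 51 and 35 in the USP12 cells, with a log2 fold change of -2.24 and an SE of 0.93. CTF1, which encodes the gp130 ligand cardiotrophin-1, had 21 and 3 counts in the controls, then 27 and 45, for a log2 fold change of 1.55 with an SE of 1.08. FLT3LG and IL15 had log2 fold changes of -0.88 and -0.48, with SEs of 0.70 and 0.53.

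**Figure D5:**
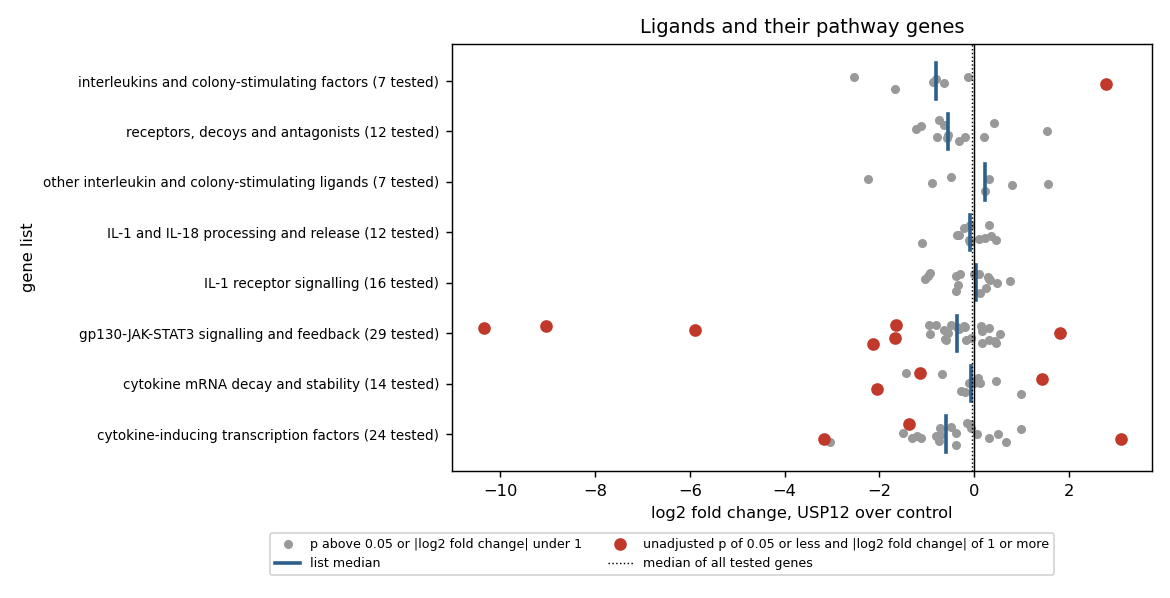
Log2 fold changes (USP12 over control) of every tested gene in the cytokine group and in 7 pathway lists, with 1 point a gene, the list median as a blue line and the median of all tested genes dotted. Red points met the criterion, and 6 of the 10 lower ones of the pathway lists belong to the gp130 list. The 2 points furthest to the left, SAA1 and SAA2, had 0 counts in both USP12 libraries, so their fitted values are no bound.

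No gene of the lists for IL-1 processing and IL-1 receptor signalling met the criterion, beside 4.41% lower and 2.92% higher of all tested genes. Of the 22 genes for processing and release, 12 were tested, with a median log2 fold change of -0.08. S100A13, which takes part in the release of IL-1α, had the smallest p of the list, with 798 and 440 counts in the controls and 289 and 272 in the USP12 cells (log2 fold change -1.10, SE 0.54). CAPN2 and CAPNS1, a large and the small subunit of the calpains that cut pro-IL-1α, had log2 fold changes of 0.47 and -0.33, and the pore-forming GSDMD one of -0.36. CASP1, the protease that matures IL-1β and IL-18, and the inflammasome sensor NLRP3 were chosen after their values were seen. CASP1 had 10 counts in control replicate 1 and 0 elsewhere, and NLRP3 had 12 counts there and at most 1 elsewhere. That library also held all the IL1A counts and 71 counts of IL1B, which had 13 in USP12 replicate 2. In the processing list 4 genes were higher by the criterion when control replicate 1 was left out, and 1 was lower when control replicate 2 was. Of the 17 genes of IL-1 receptor signalling, 16 were tested, with a median of 0.04. ECSIT, IRAK2, PELI2 and IRAK1 had the smallest p-values, with log2 fold changes of -1.05, -0.93, -0.97 and -0.39. Here 1 gene was lower without the filter or without control replicate 1, and 2 were lower and 4 higher without control replicate 2.

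Over all 7 lists, 111 genes outside the cytokine group were tested, of which 10 (9.01%) were lower and 3 (2.70%) were higher by the criterion, beside 4.41% and 2.92% of all tested genes. Of the 29 tested genes of the gp130 list, 6 were lower and 1 was higher, and the list median was -0.35. The 6 lower ones were FGG, FGB, SERPINA3, SAA1, SAA2 and LRG1, which encode acute-phase proteins. Other acute-phase genes of the list, named after their values were seen, did not meet the criterion. FGA, the fibrinogen α chain gene, had 2791 and 3988 counts in the controls, then 1560 and 1654 (log2 fold change -0.93, SE 0.33). LBP had 25 and 3 counts, then 17 and 10, with overlapping groups, HP had at most 4 counts and CRP had 0 in every library. FGG, the fibrinogen γ chain gene, had 1428 and 1989 counts in the controls against 373 and 327. The groups were well apart and the controls agreed, with a log2 fold change of -2.14 and an SE of 0.37 (adjusted p = 0.199, edgeR quasi-likelihood test). Against control replicate 2 alone the log2 CPM difference was -2.15, and against control replicate 1 alone it was -2.13. FGB, the β chain gene, had 2213 and 4801 counts against 1032 and 892 (log2 fold change -1.67, SE 0.40).

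SERPINA3, which encodes α1-antichymotrypsin, had 2174 and 321 counts in the controls and 22 and 21 in the USP12 cells, with a log2 fold change of -5.90 and an SE of 1.16. SAA1, a serum amyloid A gene, had 273 and 24 counts against 0 and 0, at least 51.9-fold lower when set against 3 counts a library, and at least 6.28-fold from control replicate 2 alone. SAA2 and LRG1 were the others, and both were named after their values were seen. SAA2 had 106 and 15 counts against 0 and 0. SAA1 and SAA2 are near-identical copies, so the split of reads between them is uncertain. LRG1 had 67 and 70 counts against 18 and 22. The 1 higher gene was SOCS2, a feedback inhibitor of cytokine receptors, also named after its values were seen, with 20 and 79 counts against 134 and 161. STAT3 itself had 3147 and 3415 counts in the controls and 2986 and 3781 in the USP12 cells, and the STAT3 feedback gene SOCS3 had 1232 and 448 against 557 and 582. SOCS3 and STAT3, again named after their values were seen, thus overlapped between the groups. The control values of SOCS3 lay far apart, and whether STAT3 signalling differed was not tested.

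Cytokine mRNAs are short-lived, and RNA-binding proteins set their decay. A list of 14 genes for mRNA decay and stability was tested in full. It also holds genes that do not encode RNA-binding proteins, such as DUSP1. By the criterion 2 were lower and 1 was higher (4.41% and 2.92% of all tested genes). The list median was -0.06, as for all tested genes. ZC3H12A, the RNase Regnase-1 that degrades IL6 mRNA, had 2314 and 928 counts in the controls and 402 and 375 in the USP12 cells (log2 fold change -2.04, SE 0.63). ZFP36, or tristetraprolin, had 2221 and 1850 counts against 895 and 849 (log2 fold change -1.13, SE 0.40). Its relative ZFP36L1 was higher, with 2591 and 2084 counts against 3269 and 8697, with USP12 replicate 2 well above USP12 replicate 1. DUSP1, a phosphatase that limits MAP kinases, had 940 and 717 counts against 1553 and 1534. Its log2 fold change of 0.98, with an SE of 0.42, did not meet the criterion.

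Among 25 transcription factor genes known to drive cytokine genes, 24 were tested, 2 were lower and 1 was higher by the criterion (4.41% and 2.92% of all tested genes), and the median log2 fold change was -0.60. IRF7 had 191 and 916 counts in the controls and 56 and 46 in the USP12 cells (log2 fold change -3.17, SE 0.72). NFKB2, which encodes the p100 precursor of NF-κB, had 2559 and 1450 counts against 775 and 713 (log2 fold change -1.38, SE 0.50). FOS, a subunit of AP-1, had 149 and 119 counts against 59 and 29 (log2 fold change -1.51, SE 0.63) and did not meet the criterion. RUNX2, a factor known from bone, was the higher one, with 2 and 6 counts in the controls and 14 and 48 in the USP12 cells (log2 fold change 3.09, SE 1.01). In 12 of the 24 genes both USP12 libraries were below both controls and in 3 they were above, beside 17% and 19.5% of all tested genes. None of these values has an adjusted p under 0.05.

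For each tested member, the genes with the most similar profile over the 4 libraries were sought among 14327 or 14328 genes with a mean of 1 CPM or more. Likeness was the distance between log2 CPM values centred on each gene's mean. IL11 lay nearest to GALNT16 (distance 0.12), EYA2 (0.14) and C14orf132 (0.18), and 18 genes were within 0.5 of it. EYA2, a transcriptional coactivator gene, had 39 and 19 counts in the controls and 180 and 207 in the USP12 cells, and C14orf132 had 104 and 57 against 588 and 614. For LIF, IL18 and CSF1, whose log2 fold changes were smaller in size, 1363, 2425 and 895 genes were within 0.5. Profiles were centred but not scaled, so the number of genes within a fixed distance also depends on the size of the differences. These numbers therefore do not show how common each profile is. Nearest to LIF were TCF25, LRP10 and ZNF526, to IL18 HMGA1, TBCD and CC2D1A, and to CSF1 PYCR1, TOM1 and PRKCD. IL32 lay nearest to Z84812.4, C10orf11 and MYOM2, with 105 genes within 0.5. IL6 had 2 genes within 0.5 (SYNGR3 and CATSPERG, followed by KLHDC8A) and IL1B had 0, its nearest being ST8SIA1, TSPAN18 and METRNL. With 4 libraries these distances describe the profiles and carry no test.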

How the data were processed

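Raw counts of uniquely mapped fragments per gene were deposited by the authors. By their notes, adaptor and rRNA reads were removed with Seqtk, reads were mapped to GRCh38 with HISAT2 2.0.4 and counted with StringTie 1.3.0. A stranded library kit was used, while the annotation release and the strand setting of counting are not given in the sources used here. Counts were compared in R 4.3.3 with edgeR 4.0.16 (filterByExpr, TMM, quasi-likelihood test) on 15222 genes, with Benjamini-Hochberg adjustment over them. DESeq2 1.42.0 was an alternative. SEs were derived from the F statistic and are approximate. CPM were TMM-scaled, log2 CPM had a prior count of 2, and 3 counts were the floor. TPM used the union of exons in GENCODE 44, which held 99.2% of tested genes. Sequences came from RefSeq.

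The members, gene lists and tests were chosen with earlier results of these data known. Named were the 10 members, USP12, every receptor gene that the text lists, the 4 genes of each other list with the smallest p, and the 3 nearest profiles of each tested member.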

Additional observations from a re-analysis of the deposited data

How the results depend on the processing

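IL11 was higher under all 10 alternatives, and over the 40 values of tested members under alternatives that kept all libraries, 40 kept their direction and 36 their side of the threshold. The cause of the changes below was not tested. Leaving out 1 library gave IL11 from 2.28 to 3.61, and IL18 and IL32 turned to 0.30 and 0.12 without control replicate 1, against -0.44 and -1.42 without control replicate 2. The members with an adjusted p under 0.05 were 0 lower and 0 higher, and 1 higher (IL11) by DESeq2, by the edgeR exact test and under the replicate block, and 1 lower (CSF3) and 1 higher without a filter. With a library left out they were 0 to 4 lower and 0 to 1 higher. The 4 were LIF, CSF1, CSF3 and IL32 without control replicate 2. By the criterion, 0 members lower became 3 without a filter (IL1A, IL1B and CSF3) and 0 to 5 with a library left out. The 5 arose without control replicate 2 (IL1A, IL1B, IL32, CSF1 and CSF3).

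Over all genes, the criterion gave 671 lower and 445 higher, 1173 and 688 without a filter, and 300 to 2134 and 159 to 2495 with a library left out. At an adjusted p under 0.05 there were 0 and 0, but 361 and 167 without a filter, 277 and 133 by DESeq2, 262 and 167 by the exact test, 251 and 153 with the replicate block, and 28 to 2612 and 12 to 2550 with a library left out. Pathway genes by the criterion were 10 lower and 3 higher, 18 lower without a filter, 5 higher with the replicate block, and 5 to 26 and 0 to 13 with a library left out. USP12 itself had a log2 fold change of 6.32 in the filtered fit on all libraries (adjusted p = 0.0975, edgeR quasi-likelihood test). By the same test the adjusted p was 0.0941 with DESeq2 size factors and 0.0902 with at least 10 counts in every library. It was under 0.05 unfiltered, by DESeq2, by the exact test and under the replicate block. The log2 fold changes there were 6.33, 6.31, 6.32 and 6.43, and 5.85 to 7.06 when 1 library was dropped.

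Whether same-numbered libraries were handled together is not given in the sources used here. Their deviations had a correlation of 0.152 across genes, and with the replicate block IL11 was 2.92. A lone library was assumed to vary like the other group. Low counts limit IL1A, IL1B, IL6, IL23A and CSF3.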

Other observations

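A few genes that receive or transmit cytokine signals differed between the control libraries in the opposite direction to most of the ligand genes. These were chosen after their values were seen. REL, an NF-κB subunit gene, had 9 and 577 counts in the controls and 0 and 57 in the USP12 cells. TAB2, an adaptor of IL-1 receptor signalling, had 79 and 1089 counts against 775 and 824, and JAK2 had 14 and 156 against 65 and 90. In these 3 genes, chosen in that way, control replicate 2 was the highest library. Of the 10 ligand genes it was the highest in 1, and of all 15222 tested genes in 4422.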
